A study of Mus musculus with 4 samples.

Results

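Lymphatic valve endothelial cells were examined in the ear skin of neonatal mice. They were the barcodes with 3 or more UMIs (unique molecular identifiers, each standing for 1 captured transcript) summed over Cldn11, Gdf10 and Fibin, at least 1 Prox1 UMI, and under 3 UMIs summed over Mki67 and Top2a. By this rule 55 of 1500 cells of library 1 and 75 of 2250 cells of library 2 were valve cells, 130 of 3750 cells in all. They were set against all other lymphatic cells, which were non-members with 3 or more UMIs summed over Prox1, Mmrn1 and Reln (251 and 538 cells).

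Lymphatic valves are paired leaflets inside collecting lymphatic vessels that keep lymph from flowing backwards. Their endothelium carries high Prox1, the transcription factor that sets lymphatic identity, and depends on the transcription factors Foxc2 and Gata2, on connexins and on adhesion to a fibronectin matrix. Disturbed flow and calcium signalling are known to act on its formation. Capillary lymphatic endothelium, which takes up fluid and immune cells, carries the hyaluronan receptor Lyve1 at high level, and collecting vessels carry little of it.

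The cells came from ears of C57BL/6 mice at postnatal day 8. They were enriched for CD31 (Pecam1) and sorted as live, CD31-positive and tomato-positive cells, where the tomato reporter was switched on by the endothelial, tamoxifen-inducible Cdh5CreERT2 driver. The study deposited 2 biological replicates of the single-cell mRNA library (10x Genomics 3' v3) and 2 libraries of antibody tags (CITE-seq) from the same cells, all of 1 age and treatment. How many animals each replicate holds is not stated in the sources. All cell groups therefore come from the same 2 libraries, and every class carries the Cre driver and the reporter.

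Library 1 held 1745 barcodes and 15989249 UMIs, and library 2 held 2877 barcodes and 26675353 UMIs. Cells were kept with 500 or more genes and at most 10% of UMIs from mitochondrial genes. The libraries shared 3 barcodes, none of them a valve cell. Median depth was 8293 and 8964 UMIs in valve cells, against 9112 and 10570 UMIs in other lymphatic cells. Tomato UMIs were found in 40.0% and 42.7% of valve cells, against 39.8% and 37.2% of other lymphatic cells.

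Valve cells were 18.0% of all lymphatic cells in the first library (13.8 to 22.7%) and 12.2% in the second (9.75 to 15.1%; 95% Clopper-Pearson intervals, which cover counting error only). These shares describe sorted cells and not the vessel wall. The gate genes chose the cells, so their levels are a description. Cldn11, a claudin of tight junctions, was present in 51 of 55 and 43 of 75 valve cells. Gdf10, a ligand of the TGF-beta family, was present in 35 and 42 of them, and Fibin, a secreted protein known from fin development in fish, in 34 and 58. All 3 genes were found together in 21 and 14 valve cells. In CPM (UMI counts relative to the library total, scaled between libraries), Cldn11 stood at 722 and 246 in valve cells, against 20.5 and 11.4 in other lymphatic cells. Prox1 stood at 1046 and 660 in valve cells, against 385 and 345, and Mmrn1, a lymphatic multimerin, at 604 and 1058 in valve cells, against 1178 and 1221 in other lymphatic cells. The genes that drew cells through the gate thus differed between the libraries, Cldn11 being the most frequent in library 1 and Fibin in library 2. The summed gate UMIs had a minimum of 3, a median of 8 and a maximum of 83 in library 1, and a minimum of 3, a median of 4 and a maximum of 31 in library 2. Just inside the gate, at a sum of 3, lay 8 and 27 cells, and just outside it, at a sum of 2, lay 22 and 43 cells.

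Sbspon and Neo1, markers of valve endothelium outside the rule, were higher in valve cells. They were chosen with results of these data known, so their levels are no independent support for the label. Sbspon, a secreted protein with somatomedin B and thrombospondin domains (chromosome 1, 15853862 to 15892722, minus strand, GRCm38), had 270.1 and 113 CPM in valve cells of libraries 1 and 2, against 7.29 and 2.16 CPM in other lymphatic cells. The libraries of the 2 classes did not overlap, and the log2 change was 5.42 ± 0.24 (SE, edgeR quasi-likelihood test, adjusted p = 1.74e-06). Neo1, the neogenin receptor for netrins and repulsive guidance molecules (chromosome 9, 58874687 to 59036441, minus strand), had 283 and 193 CPM in valve cells, against 26.0 and 21.9 CPM in other lymphatic cells. Its log2 change was 3.29 ± 0.17 (edgeR adjusted p = 4.31e-06). Neo1 UMIs were found in 25 of 55 and 25 of 75 valve cells (45.5% and 33.3%), against 9.56% and 11.3% of other lymphatic cells. In blood endothelial cells, at median depths of 8249 and 8643 UMIs, 9.69% and 9.53% of cells held a Neo1 UMI. The share in other lymphatic cells thus lay near that of blood endothelium, and the share in valve cells lay above it. Sbspon UMIs were found in 56.4% and 28.0% of valve cells, against 0.548% and 0.480% of blood endothelial cells.

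The members were graded by how far past the gate they lay. In cells with 10 or more gate UMIs (26 and 17 cells), Sbspon stood at 519 and 344 in CPM without that scaling, in which all values of this paragraph are given. In cells with 3 or 4 gate UMIs (12 and 40 cells) it stood at 36.4 and 4.75, against 3.10 and 1.23 in other lymphatic cells without any gate UMI. Lyve1 ran the other way. It stood at 79.6 and 838 at 10 or more gate UMIs, at 1492 and 2003 at 3 or 4 gate UMIs, and at 2022 and 2192 in cells with none. Neo1 stood at 100.1 and 85.5 at 3 or 4 gate UMIs, against 17.6 and 13.3 in cells with none. The cells nearest the gate, which made up 40 of 75 members in library 2, thus stood above cells with no gate UMI in Neo1 and Sbspon in both libraries, though Sbspon there rested on 4 and 2 UMIs. Non-members just outside the gate, at a sum of 2, had less Neo1 in both libraries (22.4 and 65.0). Their Sbspon was lower in library 1 and higher in library 2 (17.9 and 8.12). Foxc2 stood at 109 and 54.6 at 3 or 4 gate UMIs, against 170 and 81.2 just outside. Gata2 stood at 54.6 and 30.9, against 62.7 and 46.7, so neither factor set the cells nearest the gate above those just outside.

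**Figure D1:**
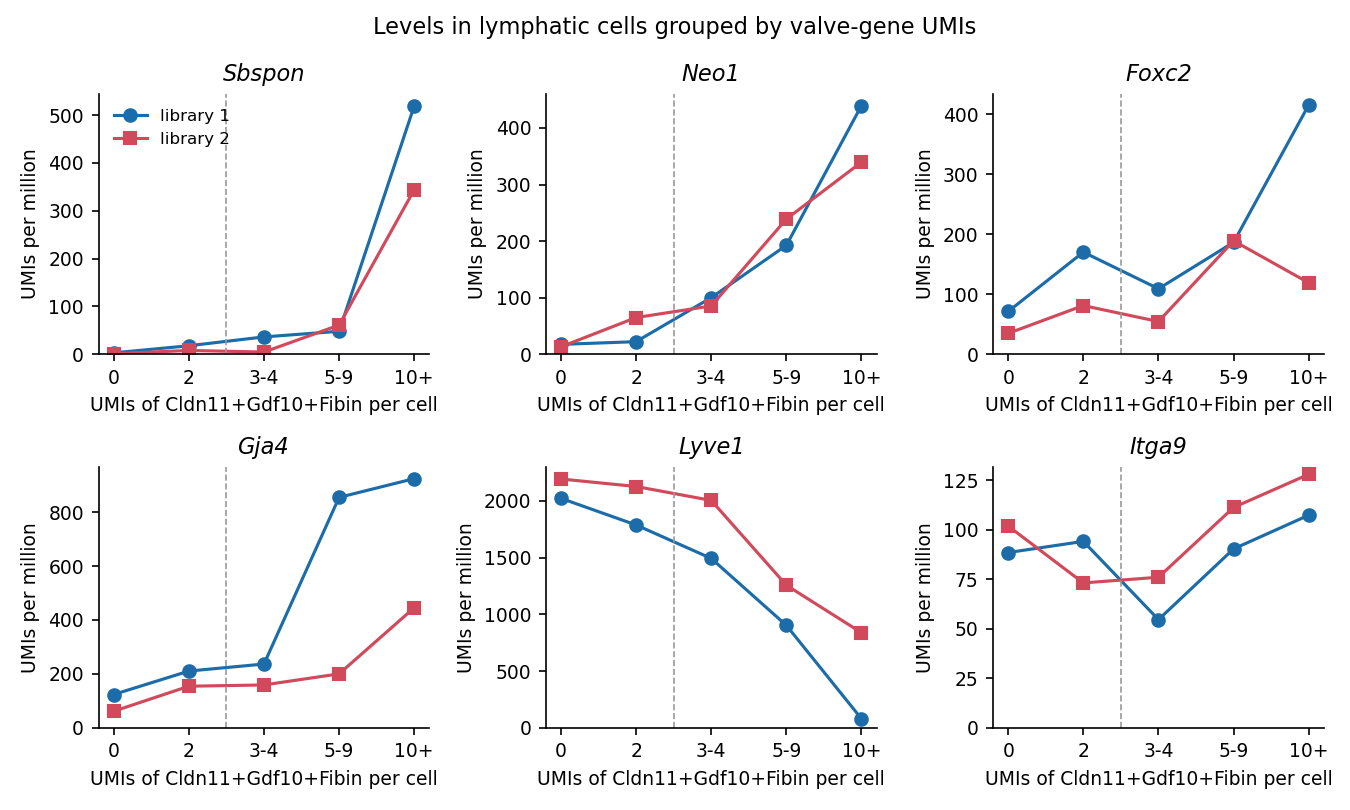
Levels of 6 genes outside the gate, in unscaled CPM, in lymphatic cells grouped by their summed UMIs of Cldn11, Gdf10 and Fibin; circles are library 1, squares library 2, and the dashed line marks the gate of 3. Sbspon, Neo1 and Gja4 reached their highest levels at 10 or more gate UMIs in both libraries and Lyve1 its lowest, whereas Itga9 stayed between 54.6 and 128. Foxc2 was highest there in library 1 only. In library 2 it stood at 81.2 at a sum of 2, 54.6 at 3 or 4, 189 at 5 to 9 and 119 at 10 or more.

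Nearest neighbours were graded likewise. Each lymphatic cell was placed by 20 principal components of 1000 variable genes, the rule's genes left out. Of the 15 nearest neighbours of a valve cell, 42.5% on average were valve cells, against 6.53% for other lymphatic cells, where valve cells were 14.1% of all. By gate UMIs, the mean was 80.0% and 65.9% in cells with 10 or more, 34.1% and 40.4% in cells with 5 to 9, and 29.4% and 16.7% in cells with 3 or 4. Cells with many gate UMIs thus lay among one another, while the 40 cells of library 2 with 3 or 4 gate UMIs had a share near the 14.1% of the whole population and above the 6.49% of other lymphatic cells of that library. The rule keeps dividing cells out of the members but not out of the other lymphatic cells. With dividing cells removed from both, a setting chosen after the data were seen, the means were 40.3% for valve cells and 7.71% for other lymphatic cells, where valve cells were 16.6% of all, and 28.9% and 14.7% for cells with 3 or 4 gate UMIs. Computed within library 2 alone the overall mean was 27.0%, and within library 1 alone 54.8%.

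**Figure D2:**
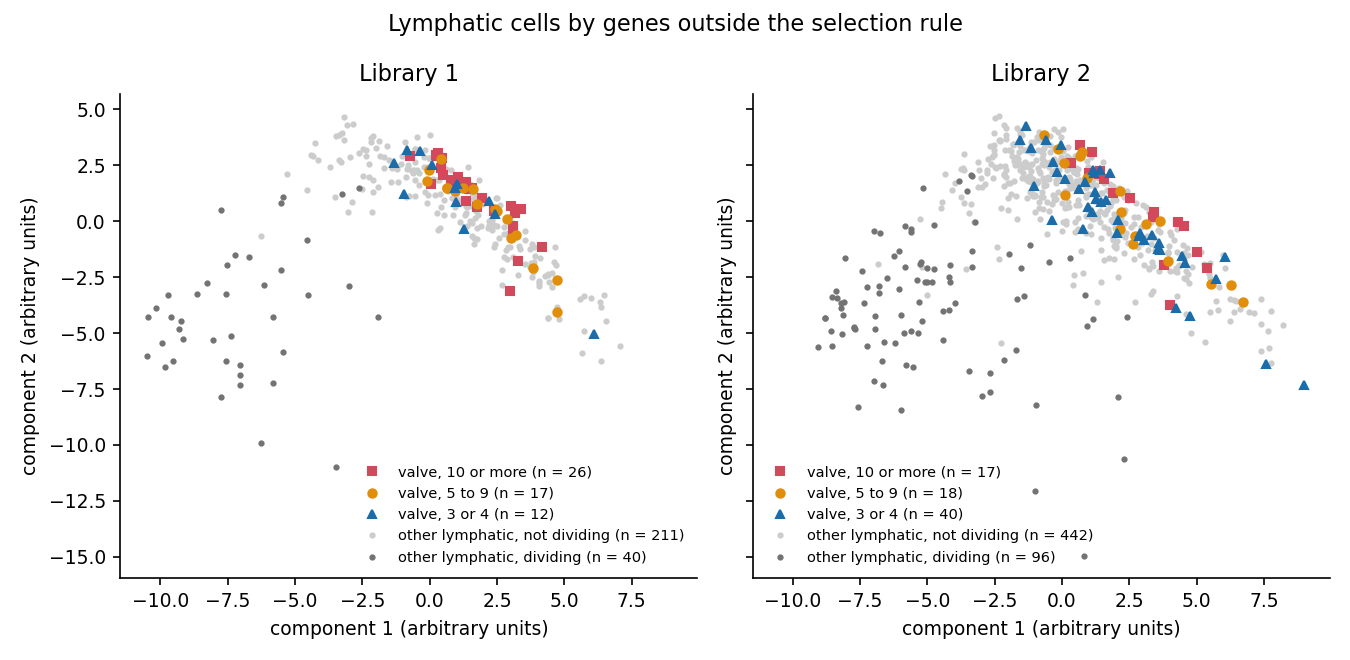
First and second principal components of lymphatic cells over genes outside the rule, in arbitrary units, with library 1 left and library 2 right; valve cells are coloured by gate UMIs, and other lymphatic cells are light grey, or dark grey with 3 or more UMIs of Mki67 and Top2a. Valve cells lay in one band with the non-dividing cells, and those of 3 or 4 gate UMIs reached from its upper left to its lower right end in library 2; the dividing cells at the lower left could not be members by the rule.

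In valve cells against other lymphatic cells, 397 of 11848 genes tested were higher and 545 were lower (7.95% called at an edgeR adjusted p under 0.05, 3.35% higher and 4.6% lower). Without a term for library in the fit, 473 genes passed. The rule removed dividing cells from the valve group and left them in the comparison group. There, 15.9% and 17.8% of other lymphatic cells had 3 or more Mki67 and Top2a UMIs. With the comparison limited to non-dividing cells, 156 genes were higher and 66 lower of 11400 tested (1.95% called, 1.37% higher and 0.579% lower), and all 156 and 66 were among the first set of calls in the same direction. Of the cell cycle list, 36 of 45 genes were lower against all other lymphatic cells, and 3 against the non-dividing ones. The direction of that list was set by the rule and is not a finding. Before the division rule, 64 and 87 cells met the gate and Prox1, and 14.1% and 13.8% of them were dividing by the same measure. The lists below are therefore given in both comparisons.

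**Figure D3:**
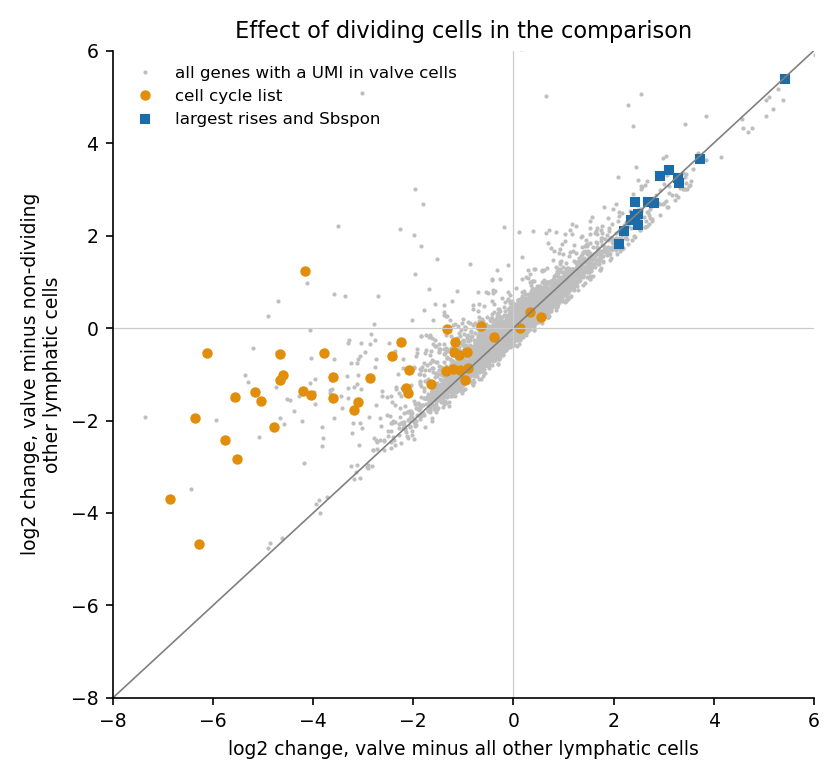
Fitted log2 change per gene of valve cells against all other lymphatic cells (horizontal) and against non-dividing ones (vertical); the diagonal marks equal values, and genes with no valve UMI are left out. Most cell cycle genes lay left of the diagonal, and the largest rises lay on or near it.

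The 15 largest rises past the expression limit of the naming rule all passed in the non-dividing comparison as well. That comparison held the same valve cells and part of the cells that chose these genes, so it is no independent support. The 15 rises covered growth factor, adhesion, transport and guidance genes. Hbegf, the heparin-binding ligand of the EGF receptor, had 80.0 and 39.6 CPM in valve cells, against 4.86 and 4.48 CPM in other lymphatic cells (log2 change 3.73 ± 0.55, edgeR adjusted p = 0.00212). Slc41a1, a magnesium transporter, had 830.4 and 511 CPM in valve cells, against 103 and 87.0 CPM in other lymphatic cells (log2 change 2.80 ± 0.22, edgeR adjusted p = 3.67e-05). For both genes each valve library lay above both other lymphatic libraries, which their choice by size and shared sign of change made likely.

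Itgb4, the beta chain of the laminin-binding integrin of hemidesmosomes, had 260.1 and 132 CPM in valve cells, against 40.2 and 27.4 CPM in other lymphatic cells (log2 change 2.50 ± 0.17, edgeR adjusted p = 1.38e-05). Net1, an exchange factor for the small GTPase RhoA, had 238 and 108 CPM in valve cells, against 23.9 and 14.99 CPM in other lymphatic cells (log2 change 3.10 ± 0.19). Ccdc141, a coiled-coil protein known from migrating neurons, had 248 and 152 CPM in valve cells, against 30.9 and 43.3 CPM in other lymphatic cells (log2 change 2.34 ± 0.23). These 3 genes changed by more than 4-fold in the fit. Others were Nr4a2, an orphan nuclear receptor (3.31 log2), Nav2, a neuron navigator (2.93), Srgn, the granule proteoglycan serglycin (2.69), Col13a1, a transmembrane collagen (2.50), S100a4, a calcium-binding protein (2.43), Flt1, the decoy VEGF receptor (2.42), Slc6a6, the taurine transporter (2.21), and Gja4 and Neo1.

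The 15 largest falls were genes of cell division and DNA replication with 1 exception, the long non-coding RNA Meg3, and 4 of the 15 passed against non-dividing cells. Meg3 had 0 UMIs in valve cells of either library, against 12.1 and 18.9 CPM in other lymphatic cells. Against the floor of 3 UMIs per library it was at least 3.56-fold lower in valve cells, and it passed in both comparisons (edgeR adjusted p = 0.00522 and 0.0163). Meg3 stood at 195 and 178 CPM in blood endothelial cells and 57.1 and 179 CPM in Lyve1-low lymphatic cells. It no longer passed once cells with 3 or more UMIs of the blood endothelial genes Flt1, Emcn and Plvap were left out of both lymphatic classes.

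Genes known from work on lymphatic valves were examined as a list of 48. Of these, 16 rose, none fell and 32 did not pass, with a median log2 change of 0.36 against -0.02 over all genes tested. Against non-dividing cells 10 rose and none fell, with a median of 0.28 against -0.01. The list was put together with knowledge of earlier results on these data and is no independent evidence of its direction.

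Among its transcription factors, Foxc2, which is required for valve formation (chromosome 8, 121116171 to 121118895, plus strand), had 272 and 104 CPM in valve cells, against 84.3 and 44.7 CPM in other lymphatic cells. The log2 change was 1.48 ± 0.16 (edgeR adjusted p = 0.000251), and 1.27 ± 0.16 against non-dividing cells (adjusted p = 0.00361). Both valve libraries lay above both other lymphatic libraries, and within each class library 1 lay above library 2. Gata2, which acts upstream of Foxc2 and Prox1, had 118 and 59.3 CPM in valve cells, against 40.2 and 29.98 CPM in other lymphatic cells (log2 change 1.31 ± 0.25, edgeR adjusted p = 0.00847), and missed the threshold against non-dividing cells (adjusted p = 0.0545).

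The flow-responsive factors Klf2 and Klf4 rose in every lymphatic comparison. Klf2 had 3048 and 2874 CPM in valve cells, against 1322 and 1328 CPM in other lymphatic cells (log2 change 1.16 ± 0.09, edgeR adjusted p = 3.81e-05). Klf4 had 1536 and 1636 CPM in valve cells, against 676 and 829.5 CPM in other lymphatic cells (log2 change 1.08 ± 0.10, edgeR adjusted p = 9.26e-05). For both genes the valve libraries were close to each other and lay above both other lymphatic libraries. Foxc1 (1.03) and Nfatc1 (0.83), 2 further factors of valve formation, passed against all other lymphatic cells and not against non-dividing ones (0.81 and 0.67).

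Of the junction and matrix genes on the list, Gja4, which encodes connexin 37 (chromosome 4, 127311421 to 127314039, minus strand), had 725 and 252 CPM in valve cells, against 135 and 75.4 CPM in other lymphatic cells (log2 change 2.12 ± 0.17, edgeR adjusted p = 4.82e-05). Both valve libraries lay above both other lymphatic libraries, and library 1 lay far above library 2. Fn1, the fibronectin that valve leaflets are built around, had 999 and 642 CPM in valve cells, against 375 and 296 CPM in other lymphatic cells (log2 change 1.26 ± 0.11, edgeR adjusted p = 7.03e-05). Lama5, a laminin chain of the leaflet core, was scarce, with 30.02 and 12.4 CPM in valve cells, against 1.39 and 1.70 CPM in other lymphatic cells (log2 change 3.59 ± 0.48, edgeR adjusted p = 0.00114).

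Cd24a, a small surface glycoprotein, had 702 and 569 CPM in valve cells, against 259.9 and 246 CPM in other lymphatic cells (log2 change 1.31 ± 0.13, edgeR adjusted p = 0.000148). Adm, the vasodilator peptide adrenomedullin, had 81.7 and 27.2 CPM in valve cells, against 5.55 and 3.55 CPM in other lymphatic cells (log2 change 3.55 ± 0.46, edgeR adjusted p = 0.00105). Angpt2, an angiopoietin of lymphatic remodelling (1.36), and the adhesion molecule Esam (1.64) also passed in both comparisons. Piezo1, a mechanically gated channel (0.69), the guidance cue Sema3a (0.86) and the receptor Ephb4 (0.53) passed against all other lymphatic cells alone.

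Of 41 lymphatic transcription factors 9 rose and none fell (median 0.44), and 5 rose against non-dividing cells. Besides those above, Foxp1, a forkhead factor, had 750.4 and 469.8 CPM in valve cells, against 325 and 252 CPM in other lymphatic cells (log2 change 1.06 ± 0.12), and Ebf1 (0.94) and the immediate-early factor Egr1 (0.83) rose. Of 21 flow response genes 5 rose and 2 fell (median 0.27), the rises including Nos3, the endothelial nitric oxide synthase (1.59), and Trpv4, a calcium channel (1.42), and the falls being Piezo2 (-0.84) and Mef2c (-0.68). Of 21 junction and adhesion genes 3 rose and none fell (median 0.15), and of 6 connexin genes 1 rose, Gja4 (median -0.23). Against non-dividing cells 2 flow response genes rose and 1 fell, and of the junction and connexin lists 1 gene each rose, Esam and Gja4.

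Several genes that valves are known to need did not pass in either comparison. Itga9, the integrin chain that binds fibronectin in valve leaflets, had 86.7 and 100.1 CPM in valve cells, against 81.5 and 97.5 CPM in other lymphatic cells (log2 change 0.06 ± 0.17, edgeR adjusted p = 0.885). The classes overlapped. Celsr1 (0.75) and Vangl2 (0.71), planar polarity genes of valve cells, Notch1 (-0.06) and Emilin1 (-0.30), an elastic-fibre protein, did not pass.

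A stricter gate of 10 or more UMIs, chosen after the data were seen, kept 26 and 17 cells. Against the same other lymphatic cells 432 of 11861 genes were higher and 649 lower (9.11% called, 3.64% higher and 5.47% lower), and 17 of the 48 known valve genes rose and 3 fell. The falls included Gja1, which encodes connexin 43 (-1.59), and Calcrl, the adrenomedullin receptor (-0.95). Foxc2 (1.91), Fn1 (1.89) and Cd24a (1.63) had larger rises than at the gate of 3, a difference that was not tested, and Sema3a (0.77) and Ephb4 (0.19) did not pass.

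**Figure D4:**
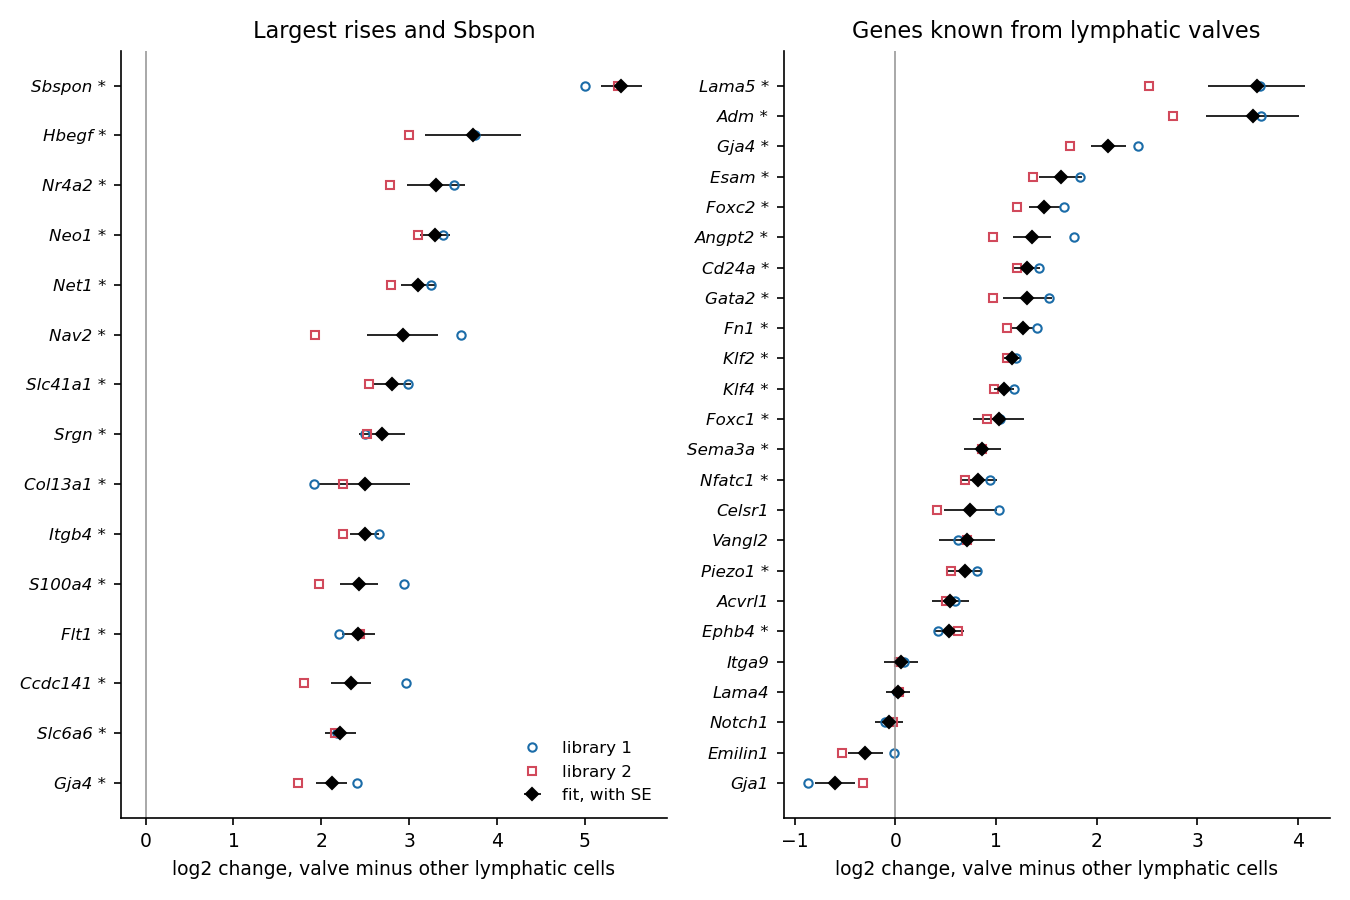
Log2 change of valve cells against other lymphatic cells for the largest rises and Sbspon (left) and for known valve genes (right, the 16 that passed and 8 that did not); diamonds are the fit on both libraries with SE, open circles and squares are single-library fits, which are drawn more strongly toward 0 at low counts, and stars mark an edgeR adjusted p under 0.05. Sbspon lay at 5.42 and the known valve genes shown between -0.60 for Gja1 and 3.59 for Lama5.

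Of 19 tested genes known from lymphatic capillaries, 5 fell and 1 rose (median log2 change -0.15), and 4 fell and 1 rose against non-dividing cells. Lyve1 had 562 and 1558 CPM in valve cells, against 1929.8 and 2263 CPM in other lymphatic cells (log2 change -1.14 ± 0.23, edgeR adjusted p = 0.0118). The fall was -1.78 in library 1 and -0.54 in library 2, and 67.3% and 26.7% of valve cells had at most 1 Lyve1 UMI, against 26.7% and 5.95% of other lymphatic cells. Ptx3, a secreted pentraxin, had 68.4 and 369.7 CPM in valve cells, against 545 and 863 CPM in other lymphatic cells (log2 change -1.87 ± 0.29). Mrc1, the mannose receptor, had 10.0 and 29.7 CPM in valve cells, against 53.8 and 128 CPM in other lymphatic cells (log2 change -2.18 ± 0.27). Nts, the neurotensin precursor, rose, with 1136 and 508 CPM in valve cells, against 281 and 208 CPM in other lymphatic cells (log2 change 1.67 ± 0.16, edgeR adjusted p = 0.000147). Ccl21a, the chemokine that draws dendritic cells, had 8183 and 11030.3 CPM in valve cells, against 7756 and 11190.0 CPM in other lymphatic cells (log2 change 0.03 ± 0.15), with overlap of the classes and no pass.

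Of 21 lymphatic identity genes, 4 fell and 1 rose (median -0.37). Flt4, the receptor of VEGF-C, had 247 and 357 CPM in valve cells, against 408 and 509 CPM in other lymphatic cells (log2 change -0.61 ± 0.11, edgeR adjusted p = 0.00774). Its co-receptor Nrp2 (-1.05) and the scavenging chemokine receptor Ackr2 (-1.70) fell against all other lymphatic cells and missed the threshold against non-dividing ones. Fxyd6, a modulator of the sodium pump, rose (0.96). Against non-dividing cells 2 of the list fell and 1 rose. Of 17 collecting-vessel genes 2 rose and 2 fell (median -0.04). Igfbp5, which binds insulin-like growth factors, rose by 1.47 and Cldn5, the endothelial claudin, by 0.62, while Igfbp4 (-1.19) and Cavin1 (-0.52) fell, and of these 4 Igfbp5 and Igfbp4 passed against non-dividing cells.

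Of 15 VEGF and angiopoietin genes 5 rose and 1 fell (median 0.79), and 4 rose against non-dividing cells (median 0.90), among them Vegfa itself (21.7 and 24.7 CPM in valve cells, against 6.59 and 5.56 CPM in other lymphatic cells, log2 change 1.98 ± 0.36). Of 38 BMP and TGF-beta genes 5 rose and none fell (median 0.06), and 2 rose against non-dividing cells, with Gdf15, a stress-induced ligand, at 1.53. Of 15 integrins 3 rose and none fell (median 0.06), which were Itgb4, Itgb8 (2.93), the chain that activates latent TGF-beta, and Itga6 (0.59), the partner of Itgb4. Against non-dividing cells 2 of the 3 passed, Itgb4 and Itgb8. Of 23 Wnt genes 2 rose and none fell (median 0.12), Dkk3, of the Dickkopf family (1.72), and Nkd1, a feedback inhibitor (1.25), of which Dkk3 passed against non-dividing cells. Of 41 guidance and polarity genes 4 rose and 1 fell (median 0.06), with Ntn4, a basement membrane netrin, at 3.38 and Prickle1, a planar polarity gene, at 1.47. Of that list 2 rose and none fell against non-dividing cells.

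Of 60 matrix and basement membrane genes 7 rose and 7 fell (median -0.10), and 3 rose and 2 fell against non-dividing cells. Besides Fn1 and Lama5, the rises included Mfap2, a microfibril protein, with 330.2 and 119 CPM in valve cells, against 87.8 and 23.2 CPM in other lymphatic cells (log2 change 2.11 ± 0.36, edgeR adjusted p = 0.00473). Col8a1, a short-chain collagen, had 51.7 and 4.95 CPM in valve cells, against 1.39 and 0.309 CPM in other lymphatic cells, so nearly all of it came from library 1. Tnc, tenascin C, had 5.00 and 11.1 CPM in valve cells, against 39.2 and 42.5 CPM in other lymphatic cells (log2 change -2.27 ± 0.33), and Nid2, a basement membrane nidogen, also fell (log2 change -1.06).

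Of 18 Notch pathway genes none passed by edgeR or DESeq2 (median -0.04), and 3 were lower and none higher at an unadjusted edgeR p under 0.05. Of 23 interferon response genes likewise none passed by either tool (median 0.08), and 4 were lower and none higher at an unadjusted p. Over all genes 7.95% were called by edgeR, and in lists this short a count of none lies near that share. The share of all genes at an unadjusted p was not taken, so no direction is read from those counts. Of 31 actomyosin and YAP target genes 4 fell and none rose (median -0.37), among them Myh9, the non-muscle myosin heavy chain (-0.72), and 2 fell against non-dividing cells. Of 23 immediate-early and stress genes 13 rose (median 0.70), and against non-dividing cells 1 rose, Nr4a1, an orphan nuclear receptor (1.90). The median there was 0.51, with 91.3% of the members above 0. Against Lyve1-low cells 1 rose and 1 fell. Such genes are known to respond to tissue dissociation, whose part in the result was not tested. Of 29 chemokine and leukocyte adhesion genes 2 rose and 4 fell (median 0.09), and none passed against non-dividing cells. Ccl2, which draws monocytes, had 6.67 and 14.8 CPM in valve cells, against 59.7 and 132 CPM in other lymphatic cells (log2 change -3.22 ± 0.33, edgeR adjusted p = 0.000217).

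Of 9 blood endothelial markers 4 rose and none fell (median 0.29), namely Flt1, Esam, Rgcc and Sox17, and 4 rose against non-dividing cells. Flt1 had 55.0 and 70.5 CPM in valve cells, against 11.1 and 12.5 CPM in other lymphatic cells (log2 change 2.42 ± 0.19), and 399.9 and 469 CPM in blood endothelial cells. Its UMIs came from 10 of 55 and 11 of 75 valve cells. The whole list summed to 1076 and 1103 unscaled CPM in valve cells, against 926 and 690 in other lymphatic cells and 5790 and 6098 in blood endothelial cells. Scrublet called 1 and 4 valve cells as doublets. Without called cells, Flt1 (2.08) and Esam (1.74) still passed, whereas Sox17 (0.66), Rgcc (1.31), Aplnr (1.55), the apelin receptor, and Col13a1 (2.15) did not. Col13a1 changed sign once cells with blood endothelial UMIs were left out.

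Other cell types left little trace. Of 8 pericyte and smooth muscle markers, valve cells held UMIs of 1 and 2, summing to 1.77 and 2.42 unscaled CPM, against 37.4 and 39.2 in other lymphatic cells. Rgs5, a pericyte marker, had 1 UMI in valve cells of library 1 and none in library 2. Fibroblast markers (3 and 4 of 7 with a UMI) summed to 10.6 and 24.2 in valve cells, against 36.7 and 58.3 in other lymphatic cells, with Dcn, Lum and Dpt at 0. Erythroid markers summed to 0 and 1.21 unscaled CPM, keratinocyte markers to 0 and 2.42, and immune markers to 3.54 and 12.1, with Ptprc, which encodes CD45, at 0 in both. Comp, a matrix protein also known from cartilage, rose (1.06), while the cartilage markers Acan, Col2a1 and Matn1 had no UMI in valve cells of either library. It missed the threshold against non-dividing cells (0.73).

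Some of the calls above ended under other settings. Without a term for library, which leaves the difference between libraries in the spread, Foxc2, Foxc1, Nfatc1, Piezo1, Sema3a, Ephb4, Col13a1, Fxyd6, Gdf15, Itga6, Nkd1, Prickle1, Rgcc and Comp no longer passed, nor did Lyve1, Mrc1, Ptx3, Piezo2, Flt4, Nrp2, Ackr2, Igfbp4, Cavin1, Myh9 and Ccl2. A filter of at least 1000 genes and at most 5% mitochondrial UMIs per cell left only 13 and 10 valve cells. With it, Hbegf, S100a4, Srgn, Lama5, Angpt2, Igfbp5, Nts, Gdf15, Flt4 and Tnc were among those that did not pass. With cells thinned to 4000 UMIs, Itga6, Vegfa, Tnc, Foxc1, Nfatc1 and Piezo1 were among them. The gate was applied again to the thinned counts, which left 31 and 28 valve cells. Sbspon, Neo1, Net1, Slc41a1, Itgb4, Ccdc141, Gja4, Fn1, Cd24a, Klf2 and Klf4 passed in all 3 of these settings.

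A narrower comparison was made with other lymphatic cells of at most 1 Lyve1 UMI (67 and 32 cells), a class chosen because collecting-vessel endothelium is known to carry little Lyve1. Valve cells were not limited in this way, and 67.3% and 26.7% of them had at most 1 Lyve1 UMI. Genes that follow Lyve1 could therefore be higher in valve cells by the choice of comparison. Here 135 of 10344 genes were higher and 212 lower in valve cells (3.35% called, 1.31% higher and 2.05% lower), with Lyve1 left out of the test. Without the library term 190 genes passed. Of the 15 largest rises above, 9 passed here and the other 6 had the same sign. The valve cells were the same, and the Lyve1-low cells were part of the comparison that chose these genes. Shared signs were therefore likely in advance. Sbspon had a log2 change of 4.82 ± 0.35 (edgeR adjusted p = 2.71e-05), with 270.1 and 113 CPM in valve cells, against 9.78 and 3.37 CPM in Lyve1-low cells. Ccdc141 had 248 and 152 CPM in valve cells, against 9.78 and 16.9 CPM in Lyve1-low cells (log2 change 4.04 ± 0.39, edgeR adjusted p = 0.000123). Neo1 (4.17), S100a4 (2.96), Net1 (2.52), Slc41a1 (1.84), Gja4 (1.44), Slc6a6 (1.36) and Itgb4 (1.28) passed as well.

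Against Lyve1-low cells, 7 of the 48 known valve genes rose and 2 fell (median 0.10 against -0.02 over all genes). The rises were Angpt2 (1.74), Gja4, Klf4 (1.12), Fn1 (1.11), Cd24a (1.09), Emilin1 (1.01) and Klf2 (0.69), and the falls were Gja1 (-0.92), and Efnb2, an ephrin ligand (-0.88). Foxc2 had 272 and 104 CPM in valve cells, against 119 and 142 CPM in Lyve1-low cells, with overlap (log2 change 0.59 ± 0.28, edgeR adjusted p = 0.345). Gata2 (0.43) and Foxc1 (0.05) also did not pass. Ccl21a was higher in valve cells, with 8183 and 11030.3 CPM, against 1167 and 3496 CPM in Lyve1-low cells (log2 change 2.19 ± 0.25). Of 17 lymphatic capillary genes 4 rose and 1 fell here (median 0.52). As only the comparison cells were limited by Lyve1, these directions may follow from that choice, which was not tested.

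The Lyve1-low cells carried more RNA of blood endothelial and pericyte markers, but not of immune markers (3.54 and 12.1 unscaled CPM in valve cells, against 3.37 and 0). Blood endothelial markers summed to 1076 and 1103 unscaled CPM in valve cells, against 1957 and 1830 in Lyve1-low cells, and pericyte markers to 1.77 and 2.42, against 155 and 335. Leaving out lymphatic cells with 3 or more UMIs of Flt1, Emcn and Plvap left 37 and 47 valve cells and only 6 and 5 Lyve1-low cells, and 18 genes passed.

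Against blood endothelial cells (1094 and 1459 cells), 1510 of 11846 genes were higher and 1788 lower in valve cells (27.8% called, 12.7% higher and 15.1% lower). Of the 15 largest rises against other lymphatic cells, 9 were higher and 4 lower in valve cells than in blood endothelium. Flt1 (-2.79), Srgn (-2.05), Col13a1 (-2.14) and Slc6a6 (-1.14) were lower, and Ccdc141 (6.20), Neo1 (4.48) and Slc41a1 (4.43) were among those higher.

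Valve cells also varied among themselves. By the ratio of variance to mean after thinning each cell to 4000 UMIs, the most variable genes were Fabp4, a fatty acid carrier of blood endothelium (60.5), Ccl21a (33.8), Malat1, a nuclear RNA (31.9), Gdf15 (29.1) and Nts (23.7). Fabp4 was found in 10.9% and 18.9% of thinned valve cells, with up to 89 and 59 UMIs in a cell. Nts was found in 45.5% and 31.1%, with up to 83 and 41 UMIs. Over valve cells, Cldn11 and Lyve1 had a Spearman rho of -0.41 in library 1 (55 cells) and -0.35 in library 2 (74 cells) in thinned counts, and Sbspon and Lyve1 of -0.29 and -0.53. Members were chosen partly on Cldn11, and these are descriptions over cells of shared libraries; sparse counts pull such values toward 0.

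Surface protein was read from antibody-derived tags, oligonucleotides carried by antibodies against ICAM1, VCAM1, CXCR4, VEGFR2 and CD45 and by 2 isotype controls that bind no target. Tags were found for 51 of 55 and 62 of 75 valve cells. The tags that the comparison below turns on are shown as the 15 bases that identified each antibody, all in lower case since no position within them differs in weight.
ICAM1: ataaccgacacagtg
VCAM1: cgttcctacctacct
rat IgG2b isotype: gattcttgacgacct
rat IgG2a isotype: aagtcaggttcgttt

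ICAM1 averaged 27.9 tags per valve cell in library 1 (95% counting interval 26.4 to 29.4), against 38.9 in other lymphatic cells (38.1 to 39.7). In library 2 it averaged 68.9 in valve cells (66.8 to 71.0), against 51.3 in other lymphatic cells (50.7 to 52.0). The libraries went opposite ways in these means, but relative to the isotype controls ICAM1 was lower on valve cells in both (log2 -1.08 and -0.56). Single cells weighed on the means, as 1 valve cell held 406 of 1421 ICAM1 tags in library 1 and 725 of 4271 in library 2. The median was 16 tags per valve cell against 24 per other lymphatic cell in library 1, and 33 against 32 in library 2. VCAM1, a leukocyte adhesion molecule, averaged 1.75 and 2.63 tags per valve cell, against 1.43 and 1.55 per other lymphatic cell. Its counting intervals overlapped in library 1 (1.40 to 2.15 on valve cells, against 1.29 to 1.59 on other lymphatic cells).

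The isotype controls were higher on valve cells too. Rat IgG2a averaged 1.47 and 2.92 tags per valve cell, against 0.972 and 1.49 per other lymphatic cell, and rat IgG2b averaged 0.255 and 0.5, against 0.167 and 0.247. The intervals of IgG2b overlapped in library 1 (0.136 to 0.436 on valve cells, against 0.120 to 0.226 on other lymphatic cells). On the log2 scale valve over other lymphatic was 0.29 and 0.77 for VCAM1, 0.60 and 0.97 for IgG2a, and 0.61 and 1.02 for IgG2b, so VCAM1 lay below both controls in each library. CXCR4 (1.11 and -0.26), VEGFR2 (0.32 and -0.09) and CD45 (0.45 and -0.60) changed sign between libraries. Single cells weighed on these values: in other lymphatic cells of library 2, 1 cell held 958 of 1777 CD45 tags and 1 cell 219 of 911 CXCR4 tags, and in valve cells of library 1, 1 cell held 68 of 138 CXCR4 tags. As mean log2(count + 1), in which single cells weigh less, the difference was positive in both libraries for CXCR4 (0.28 and 0.11) and CD45 (0.30 and 0.13). It was positive for the isotype controls as well, at 0.26 and 0.50 for IgG2a and 0.08 and 0.13 for IgG2b. Both proteins thus lay above both controls in library 1 and above neither in library 2. With 2 libraries an exact permutation test cannot reach 0.05, and none was made. The transcripts Icam1 (0.05) and Kdr (0.04), which encodes VEGFR2, did not pass, and Cxcr4 had no UMI in valve cells of either library.

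**Figure D5:**
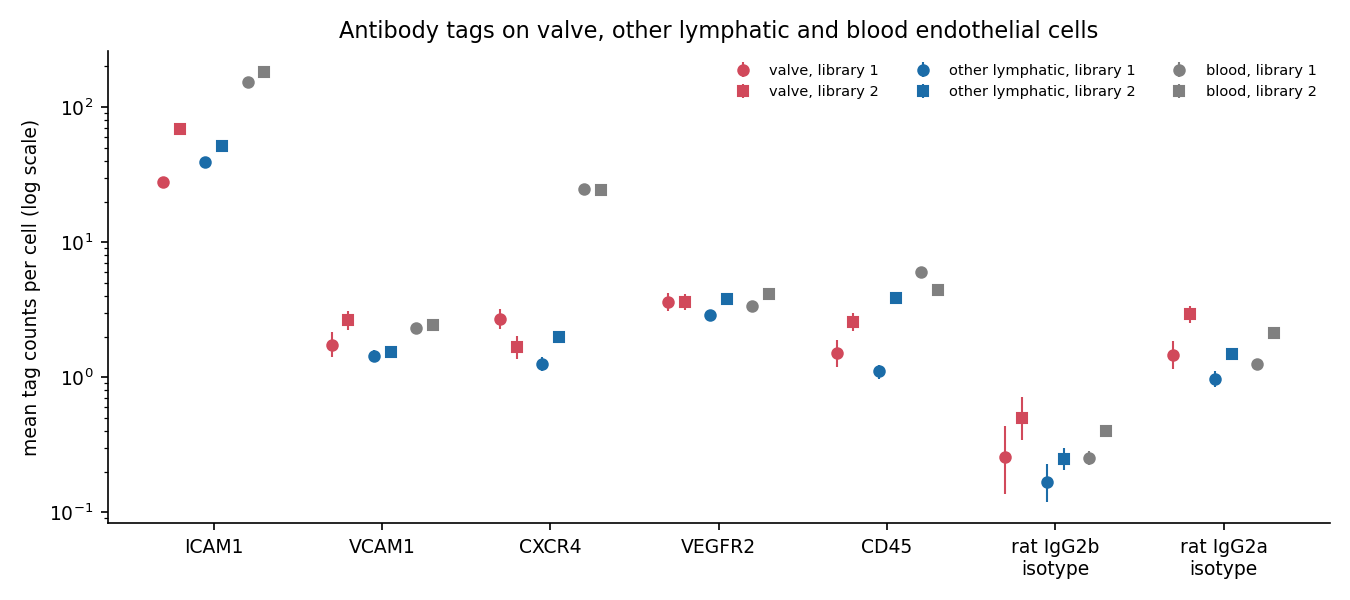
Mean tag counts per cell on a log scale for 7 antibodies on valve (red), other lymphatic (blue) and blood endothelial cells (grey); circles are library 1, squares library 2, and bars are 95% intervals of counting error. Both isotype controls lay higher on valve than on other lymphatic cells in each library, and ICAM1 lay lower in library 1 and higher in library 2.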

How the data were processed

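Ear endothelial cells of postnatal day 8 mice were profiled as 2 mRNA and 2 antibody-tag libraries. The authors deposited raw counts: whole-number UMI counts per gene and barcode from Cell Ranger with mm10, per the submitters' processing notes, and tag counts per antibody and barcode. Whether the tag counts are UMIs or reads is not given, and neither are the annotation version and the strand setting, so reads of overlapping genes may be split between them. Gene positions were matched by gene ID in GENCODE vM21 (GRCm38).

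Barcodes with under 500 genes (26 and 45) and with over 10% mitochondrial UMIs (219 and 582) were left out. Doublets called by Scrublet (scanpy 1.11.5) numbered 2 and 15 and were kept in the main analysis. UMIs of each class were summed per library and tested with edgeR 4.0.16 (R 4.3.3) by the quasi-likelihood test, with TMM scaling, the default filter on low counts, a term for library, and Benjamini-Hochberg adjustment over all genes tested. The fit held valve, other lymphatic and blood endothelial sums. Blood endothelial cells had no UMI of Prox1, Mmrn1 or Reln and 3 or more UMIs summed over Pecam1 and Cdh5. Pecam1 and Cdh5 were left out of the blood endothelial comparison. The Lyve1-low fit divided the other lymphatic class at 1 Lyve1 UMI. Blocking by library pairs the classes, because every class of a library comes from the same animals. The block takes out the difference between libraries that all classes share. The p-values measure how far class differences varied between the 2 libraries, over all classes of the fit. The estimate of that spread is shared in part between genes. Levels in CPM are not compared between genes. Counting intervals (95%) and the floor of 3 UMIs cover counting error only.

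The members and lists were chosen with earlier results of these data known. Genes named were Sbspon and Neo1, the 15 largest rises and 15 largest falls past an adjusted p of 0.05 whose log2 CPM averaged 5 or more and whose sign was shared by both libraries, up to 4 genes of each list by p, the known valve genes, the tagged proteins, and the 10 genes that varied most among valve cells. A few further list members are named after their values were seen, among them Egr1, Ebf1, Foxp1, Nid2, Nos3, Trpv4 and Prickle1. Alternatives covered the gate, cell filters, doublets, thinning to 4000 UMIs, scaling, the low-count filter, DESeq2 1.42.0, the library block and single libraries. The fit was tested on simulated counts with 200 changed genes and a dispersion, the spread between libraries, set at 0.02. Of the 4-fold changes 84% passed, and of the 2-fold changes 30.3%. Genes that did not pass may therefore still differ by 2-fold or less. Single results for a few genes are not reported here.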

Additional observations from a re-analysis of the deposited data

How the results depend on the processing

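Valve cells were few (55 and 75), which limits the size of change that could be detected. The count of genes past the threshold against other lymphatic cells was 942 and came to 310 with at least 1000 genes and at most 5% mitochondrial UMIs per cell, 367 with cells thinned to 4000 UMIs, 222 against non-dividing cells and 1550 with no filter on low counts. Against Lyve1-low cells it was 347 and came to 176 with the stricter cell filter, 214 thinned, 230 with non-dividing Lyve1-low cells, 674 with no filter, 529 at the gate of 10 (added after the data were seen) and 18 without cells holding blood endothelial UMIs. Against blood endothelial cells it was 3298 and came to 1039 with the stricter cell filter and 1517 thinned. The stricter cell filter left 13 and 10 valve cells and 17 and 2 Lyve1-low cells. Thinning, with the gate applied again, left 31 and 28 valve cells. Loss of cells and change of setting cannot be told apart in these counts. Without the library block, that is without pairing, the first count was 473 and the second 190, and 56 of 96 named calls were kept. The share of genes higher among calls was 42.1% against all other lymphatic cells and 70.3% against non-dividing ones, where 55 of 96 named calls were kept. DESeq2 called 309 higher and 335 lower, and kept 86 of 96. The mean share of valve cells was 15.1% of lymphatic cells and 21.8%, 10.4% and 6.22% at gates of 2, 5 and 10 UMIs, and 8.07% thinned, with 12.2% to 18.0% over single libraries.

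Relative to the isotype controls the mean log2 tag difference was -0.82 for ICAM1, -0.86 for CD45, -0.26 for VCAM1 and -0.67 for VEGFR2. As mean log2(count + 1) it was 0.11 for IgG2b and 0.38 for IgG2a. Against Lyve1-low cells it was 0.43 for IgG2b, 0.31 for IgG2a, -0.17 for VCAM1 and -1.07 for CXCR4. The share of valve neighbours was 27.0% to 54.8% over single libraries. Leaving out a library leaves 1 per class, which gives values and no counts of calls.

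Of single genes, these changed sign. Thinned, Ccl21a was -0.56, Cxcl2 -2.15, Ephb4 -0.035 and Igfbp7 -0.49. At the gate of 10, Cxcl1 was -0.91, Cxcl2 -1.65 and Icam1 -1.85. Without cells holding blood endothelial UMIs, Col13a1 was -4.87 and Igfbp7 -0.99. Igfbp7 was -0.26 with the stricter cell filter and -0.27 without Scrublet calls. Cxcl2 ranged over single libraries between -1.64 and 2.05. The cause of these changes was not tested.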

Other observations

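Further genes passed in each of the lymphatic comparisons. Past the threshold against all other, against non-dividing and against Lyve1-low lymphatic cells were 66 higher and 15 lower genes. The rule's genes and Lyve1 were left out of this count, and predicted gene models were not. The genes described next were chosen after their values were seen. Fxyd2, the gamma subunit of the sodium pump, had 132 and 68.0 CPM in valve cells, against 8.67 and 5.41 CPM in other lymphatic cells. Zic2, a zinc finger transcription factor, had 45.0 and 19.8 CPM in valve cells, against 1.04 and 0.464 CPM in other lymphatic cells. Prdm16, a chromatin regulator known from arterial and fat cells, had 50.0 and 16.1 CPM in valve cells, against 2.08 and 4.33 CPM in other lymphatic cells. Oxtr, the oxytocin receptor, had 53.4 and 21.02 CPM in valve cells, against 5.55 and 9.12 CPM in other lymphatic cells. All 4 genes were lower in library 2 than in library 1 within valve cells, as was Sbspon.

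Sox4, a transcription factor at higher level, had 1192 and 1004 CPM in valve cells, against 395 and 369 CPM in other lymphatic cells and 527 and 506 CPM in Lyve1-low cells (log2 change 1.52 ± 0.12 against other lymphatic cells, edgeR adjusted p = 3.11e-05). Odc1, the first enzyme of polyamine synthesis, had 685 and 439 CPM in valve cells, against 149 and 113 CPM in other lymphatic cells (log2 change 2.09 ± 0.20). Apobec2, a member of the cytidine deaminase family known from muscle, had 88.4 and 56.9 CPM in valve cells, against 21.9 and 21.3 CPM in other lymphatic cells and 1.63 and 3.37 CPM in Lyve1-low cells.

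Chemokine and adhesion transcripts differed between the libraries within valve cells. Cxcl2 had 0 and 96.4 CPM in valve cells, against 2.43 and 22.9 CPM in other lymphatic cells, and Icam1 had 73.4 and 538 CPM in valve cells, against 107 and 457 CPM in other lymphatic cells. Hspa1a, an inducible heat shock gene, had 5.00 and 197 CPM in valve cells, against 1.39 and 115 CPM in other lymphatic cells. In both classes all 3 genes stood higher in the second library.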
